A study of Mus musculus with 58 samples.

Results

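The mRNAs of cytosolic ribosomal proteins were followed through 22 libraries of ribosome-bound mRNA from mouse brown, beige and white adipocytes. Members were taken by symbol: rows named Rpl or Rps with a number, the stalk genes Rplp0, Rplp1 and Rplp2, and Rpsa, without symbols that end in a pseudogene suffix and without the S6 kinases. Rps4l meets this rule and is kept, although RefSeq lists it as a transcribed pseudogene. This gave 73 genes with 1 row each among the 11603 rows of the table, 43 of the large and 30 of the small subunit. All mice were C57BL/6J on a chow diet, and their adipocytes carried NuTRAP, a Cre-switched GFP tag on the ribosomal protein L10a. The colony was kept at 23 °C, apart from the housing temperatures given below for each group. Anti-GFP antibody isolated the ribosomes with this tag (TRAP), and the RNA on them was depleted of ribosomal RNA. Cold brown libraries (n = 5) came from interscapular brown fat after 1 week at 4 °C. Warm brown libraries (n = 5) came from the same depot after that week and a further 4 weeks at 30 °C. Cold beige (n = 4) and warm beige (n = 3) libraries had matching treatments but the inguinal white depot as their source. Warm white libraries (n = 5) had the inguinal depot as their source, of mice that per the treatment protocol were held at 30 °C from birth. The description field of these libraries has the word rewarm where the table has warm, so the labels differ on the history of this group. Both Ucp1-NuTRAP mice, in which Cre follows the Ucp1 promoter of thermogenic adipocytes, and Adipoq-NuTRAP mice, in which it follows a promoter of all adipocytes, were used, and which of these a library came from is not given. The labels call the libraries biological replicates without naming animals, so p-values measure the spread between these samples. The 36 chromatin samples of the series were not analysed here.

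A ribosome holds 1 copy of nearly every ribosomal protein, so cells make these proteins in matched amounts. Most of their mRNAs start with a C followed by an unbroken run of pyrimidines, the terminal oligopyrimidine or TOP motif. Through this motif their translation follows the kinase complex mTORC1, which acts in part through the RNA-binding protein LARP1. TRAP measures mRNA on tagged ribosomes, so a level here depends on both the amount of an mRNA and its share on ribosomes. A lower level in bulk material does not tell fewer cells of a type from less RNA per cell.

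The start of the mRNA is where the TOP motif sits, and the RefSeq promoter table (GRCm38.p6) held a start for 54 of the 73 members. The run looked for was a C within 10 bases of an annotated start, not preceded by a C or T and followed by at least 4 more pyrimidines. It was found in 24 of the 54 (44.4%), against 26.0% of 27025 genes in that table and 30.0% of the 8620 among them that were measured here. Runs that start with a T were not counted. The 11 members with such a run of 8 or more bases starting within 8 bases of the annotated start are shown, because a pyrimidine run is the feature that sets TOP mRNAs apart. Each is given from 10 bases before to 19 bases after the base at the start, 5′ to 3′ on the gene's strand, with the pyrimidine run in capitals.
Rpl13a (chr7:45128726-45128755, minus strand): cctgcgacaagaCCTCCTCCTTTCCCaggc
Rpl14 (chr9:120571507-120571536, plus strand): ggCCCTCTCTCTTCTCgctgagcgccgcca
Rpl15 (chr14:18270967-18270996, minus strand): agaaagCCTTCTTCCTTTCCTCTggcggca
Rpl27a (chr7:109519185-109519214, plus strand): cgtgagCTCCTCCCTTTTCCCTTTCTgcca
Rpl35 (chr2:39005112-39005141, minus strand): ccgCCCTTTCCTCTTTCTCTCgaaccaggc
Rpl35a (chr16:33056472-33056501, plus strand): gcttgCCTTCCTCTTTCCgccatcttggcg
Rpl39 (chrX:37085203-37085232, minus strand): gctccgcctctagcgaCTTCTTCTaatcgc
Rps10 (chr17:27635225-27635254, minus strand): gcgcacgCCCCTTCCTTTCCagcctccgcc
Rps12 (chr10:23787190-23787219, minus strand): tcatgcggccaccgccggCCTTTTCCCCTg
Rps18 (chr17:33955646-33955675, minus strand): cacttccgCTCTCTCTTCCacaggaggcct
Rps6 (chr4:86857348-86857377, minus strand): gaagtcgggCCTCTTTTTCgtgacgcctcc

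A run of this length was found in 20.4% of the members with a start, against 5.29% of all genes in the table. Among those printed are Rps6, the substrate of the S6 kinases, and Rpl13a, a classic TOP mRNA. Annotated starts can lie some bases away from those used in fat, and a run is a match of letters, not proof of TOP control. Members with no start in the table included Rpl3, Rpl7, Rpl8, Rpl21, Rpl23a, Rpl29, Rpl30, Rpl32, Rpl36, Rplp1, Rps4l, Rps14, Rps20 and Rps29.

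Values are log2 CPM as deposited, that is the logarithm of reads scaled to a common total, on which a difference of 1 is a doubling of the level. Read depth is unknown, and levels are not compared between genes because no transcript lengths were at hand. The 73 members together took 0.286 to 0.323% of the summed CPM in cold brown libraries and 0.427 to 0.479% in warm brown ones. In cold beige libraries the share was 0.231 to 0.261%, in warm beige 0.347 to 0.473% and in warm white 0.31 to 0.391%. Warm libraries lay above cold ones without overlap in both depots. All 10 adipocyte markers were measured, at a summed 11800 to 26900 CPM. The summed level of 7 brown and beige markers was 5470 to 9900 CPM in cold libraries, 1700 to 2190 in warm brown, 166 to 313 in warm beige and 27.2 to 51.1 in warm white. Markers of other cells also moved from cold to warm beige: endothelial markers (12 of 12 measured) summed to 191 to 417 CPM in cold and 608 to 941 in warm libraries, fibroblast markers (11 of 12) to 851 to 1220 and 2900 to 5720, and macrophage markers (8 of 12) to 57.6 to 95.5 and 169 to 185. In brown the same sums were 64.4 to 220 and 143 to 246, 43.8 to 90 and 150 to 282, and 8.68 to 14.5 and 20.3 to 31.2. Skeletal muscle markers (11 of 14) summed to 11 to 43.9 CPM in cold beige and 35.9 to 306 in warm beige. In brown they went the other way, from 158 to 252 cold to 21.7 to 38.4 warm. Warm white library 2 held 515 CPM of them, against 7.32 to 23 in the other white libraries. No lymphocyte or epithelial marker was in the table. Rn45s, the precursor of ribosomal RNA, took 0.436 to 1.15% of the summed CPM in cold beige and 4.32 to 5.72% in warm beige libraries, against 0.0575 to 0.0994% in cold and 0.11 to 0.597% in warm brown. The part of these in the results below was not tested.

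**Figure D1:**
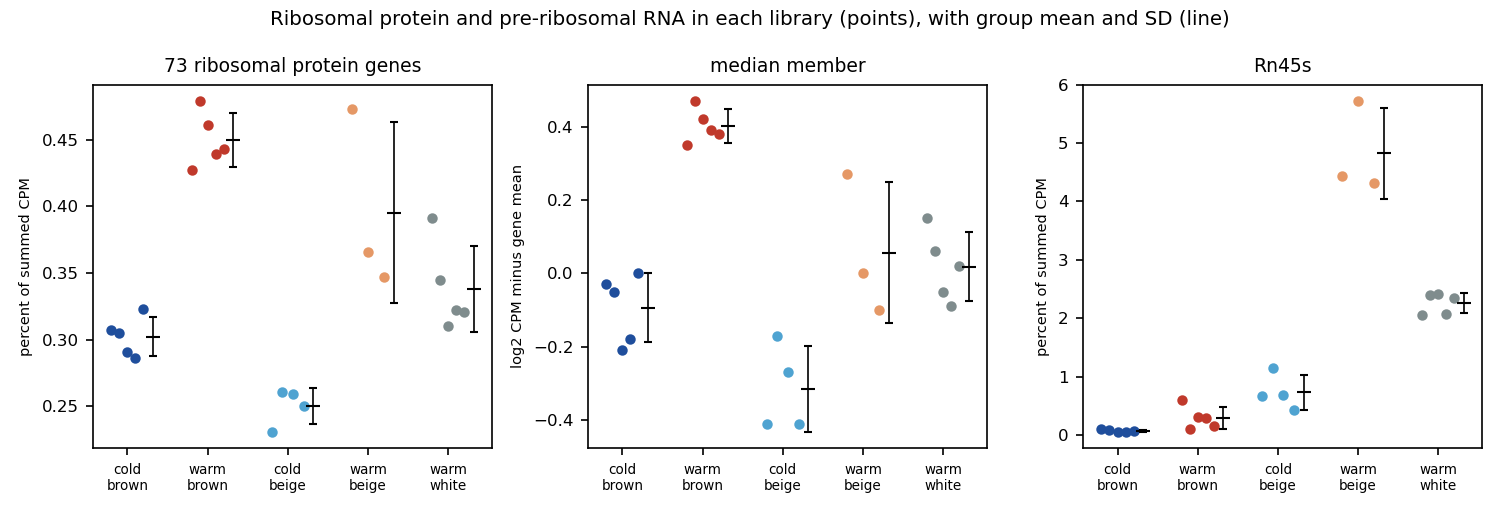
Each point is a library, grouped on the horizontal axis, with the group mean and SD as a line. The left panel gives the 73 genes' share of the summed CPM in percent, the middle panel the median member's log2 CPM minus its mean over all libraries, and the right panel the share of Rn45s in percent. Warm brown (0.427 to 0.479%) and warm beige (0.347 to 0.473%) lie above the cold libraries of the same depot in the left panel, and Rn45s is above 4% in warm beige only.

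Rewarmed beige adipocytes carried more mRNA of 37 of the 73 genes on their ribosomes than cold beige ones, and less of 18. These calls were made at an adjusted p under 0.05 (limma, Benjamini-Hochberg over all 11603 rows), at which 36.0% of all rows rose and 36.9% fell. The members that rose were 50.7% of the set and those that fell 24.7%. The median member changed by 0.33 log2 units, against 0.03 for all rows. Small subunit genes (17 of 30 rose, 6 fell, median 0.53) and large subunit genes (20 of 43 rose, 12 fell, median 0.27) both held members of either direction. The spread was wide, from Rpl29 at -2.23 to Rplp2 at 1.84. Within the batches that the deposited values reveal, 24 rose and 5 fell in batch 1 (2 cold and 1 warm library) and 33 rose and 15 fell in batch 2 (2 against 2). Without warm beige library 1, 30 rose. Scaling without the 20 most abundant rows, which moved the median of all rows from 0.03 to 0.25, gave 43 and 12.

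**Figure D2:**
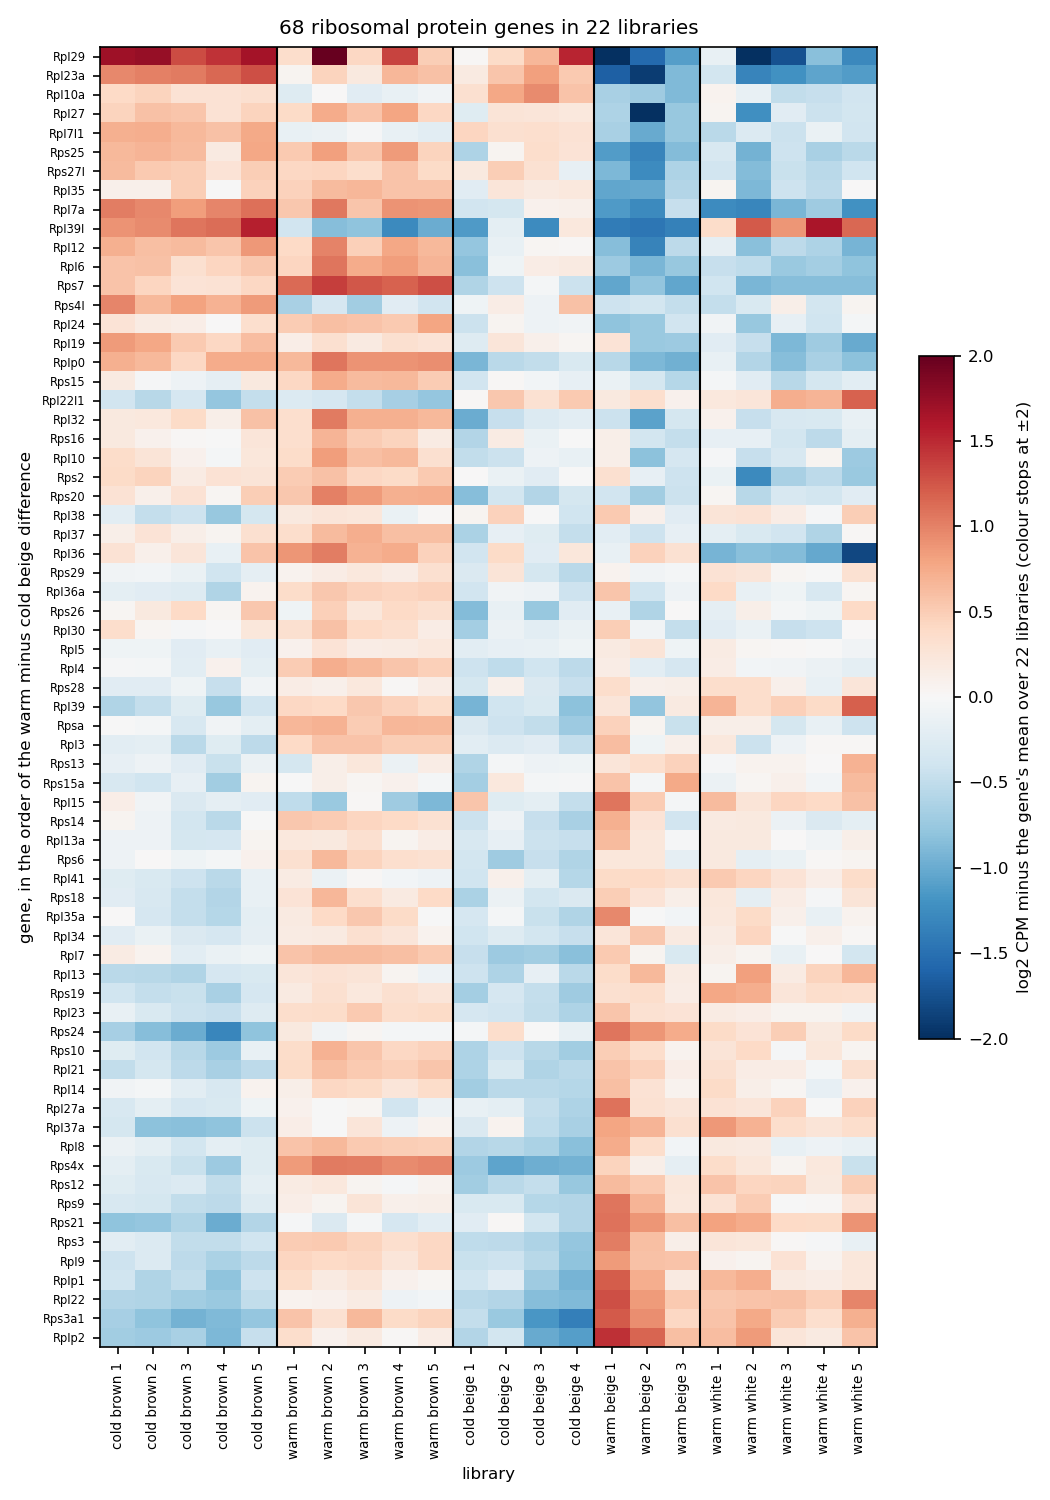
Rows are 68 of the 73 genes in the order of the warm minus cold beige difference, columns are the 22 libraries in their 5 groups, and colour is log2 CPM minus the gene's mean over all libraries, with colour stopping at 2 either way. Rpl29 and Rpl23a at the top are high in cold brown and low in warm beige, and the rows at the bottom, from Rpl22 to Rplp2, are low in both cold groups and high in warm beige.

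Most members also rose when brown adipocytes were rewarmed, over a range from -1.98 (Rpl39l) to 1.35 (Rps4x). Here 48 of the 73 rose and 8 fell, against 41.2% and 30.1% of all rows, and the median was 0.42 against 0.13. Of the small subunit genes 22 of 30 rose, and of the large subunit genes 26 of 43. Batch 1 gave 28 up and 4 down (2 libraries a group) and batch 2 gave 45 up and 6 down (3 a group). Quantile normalization, which moved the median of all rows from 0.13 to -0.01, left 32 up and 8 down.

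Taken gene by gene, 33 members rose in both depots and 6 fell in both, among them Rpl7l1, Rpl10a, Rpl23a, Rpl39l and Rps4l. Among all rows 26.8% rose in both and 23.4% fell in both, so 45.2% and 8.22% of the members compare with those shares. Opposite calls were about as frequent as among all rows: 3 members (4.11%, all rows 3.95%), with Rps7 and Rpl24 among them, fell in beige and rose in brown. Rpl15, a large subunit protein of early assembly, was the 1 member (1.37%, all rows 1.69%) that rose in beige and fell in brown. Across the 73 genes the beige and brown differences had a Pearson r of 0.70 and a Spearman rho of 0.71. Genes of 1 library share its depth and scaling, and the r over all rows was 0.71.

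**Figure D3:**
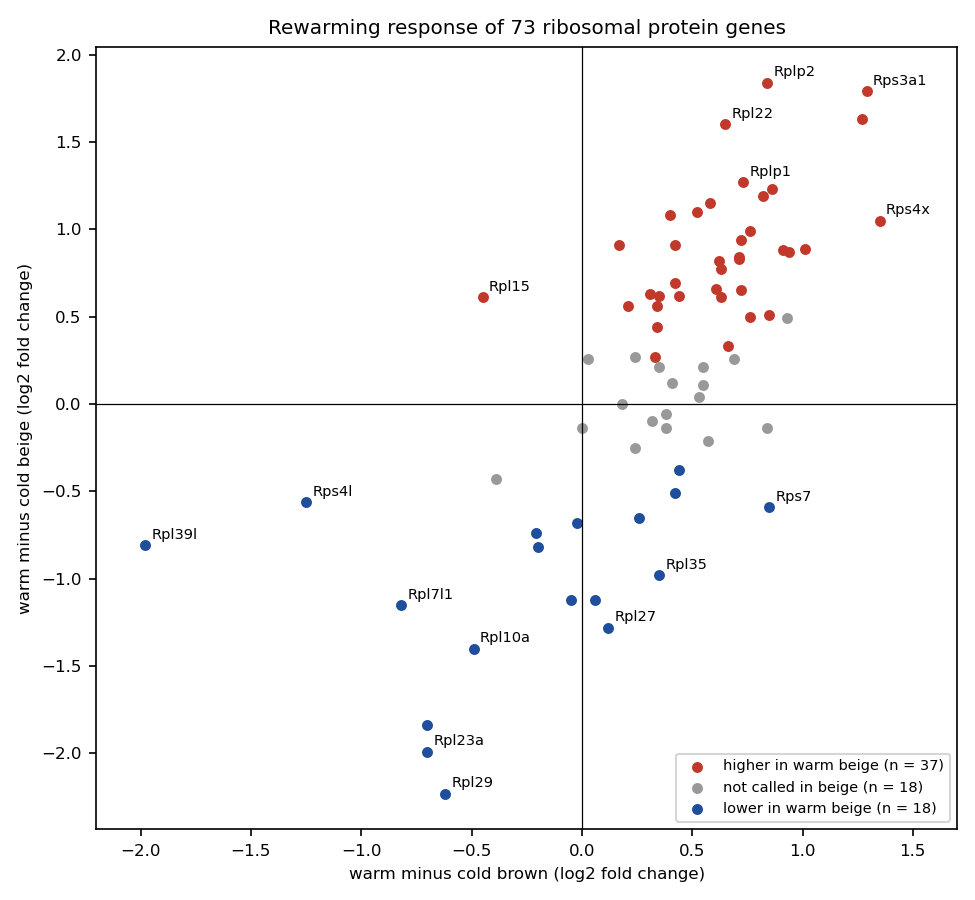
Each point is 1 of the 73 genes, placed by its log2 fold change from cold to warm brown (horizontal) and from cold to warm beige (vertical), and coloured by its call in beige. Most points lie in the upper right, Rps4x reaches furthest right at 1.35, Rplp2 furthest up at 1.84, and Rpl39l lies furthest left at -1.98.

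The stalk of the large subunit, which recruits the elongation factors, is built from Rplp0 and the paired acidic proteins Rplp1 and Rplp2, and its members did not move together. Rplp2 read 6.19, 6.40, 5.76 and 5.67 log2 CPM in the cold beige libraries and 8.23, 7.94 and 7.38 in the warm ones. In brown it read 6.08, 6.04, 6.12, 5.88 and 6.31 cold and 7.12, 6.86, 6.95, 6.80 and 6.92 warm. Warm and cold values did not overlap in either depot, and the rise was 1.84 ± 0.18 in beige (SE; adjusted p = 6.61e-09) and 0.84 ± 0.15 in brown (adjusted p = 3.65e-05). Rplp1 went from 5.94, 6.11, 5.63 and 5.41 to 7.55, 7.06 and 6.52 in beige, a rise of 1.27 ± 0.19 (adjusted p = 3.64e-06), and rose by 0.73 ± 0.16 in brown (adjusted p = 0.000298). Rplp0, the base of the stalk, read 5.28, 5.66, 5.71 and 5.89 in cold beige and 5.64, 5.29 and 5.23 in warm beige. These overlapped, and neither its beige difference of -0.25 (adjusted p = 0.141) nor its brown difference of 0.24 (adjusted p = 0.0909) passed the test. Rplp0 differed by depot instead. It read 6.61 to 6.94 in cold brown and 6.85 to 7.26 in warm brown, above every inguinal library, where the highest was 6.04. This was not particular to Rplp0: Rpl6, Rpl7a and Rps7 among others also read higher in every brown than in every inguinal library. For Rpl7a the lowest brown value was 3.73 and the highest inguinal one 3.30.

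Rpl10a is the gene of the protein that carries the tag, and it fell. It read 7.39, 7.84, 8.01 and 7.64 in cold beige and 6.42, 6.35 and 6.19 in warm beige, with no overlap (change -1.40 ± 0.13, adjusted p = 1.3e-09). In brown it read 7.46, 7.51, 7.36, 7.36 and 7.39 cold and 6.80, 7.07, 6.84, 6.91 and 6.99 warm (-0.49 ± 0.10, adjusted p = 0.000225). Its deposited row is uc008bqp.2, on chromosome 17 from 28328471 to 28331033. Whether reads of the tag's transgene are counted in this row was not tested.

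Other members with known roles rose in both depots. Rps3, which lines the mRNA entry channel, read 7.09, 7.07, 6.98 and 6.82 in cold beige and 8.62, 8.19 and 7.72 in warm beige (1.19 ± 0.14, adjusted p = 8.27e-08), and rose by 0.82 in brown. Rps6 read 3.72, 3.38, 3.63 and 3.48 against 4.32, 4.31 and 3.90 in beige (0.62 ± 0.12, adjusted p = 0.000105), and rose by 0.44 in brown. Both stood above their cold values in every warm beige library. Rpl5, which binds Mdm2 when it is free of the ribosome, rose by 0.27 ± 0.08 in beige (adjusted p = 0.00422), the smallest of the 37 called rises there, and by 0.33 ± 0.06 in brown. Rpl13a rose by 0.62 and 0.35. Rpl3, which reaches the peptidyl transferase centre, rose by 0.51 and 0.85, and Rpsa, a protein of the small subunit, by 0.50 and 0.76. Without warm beige library 1 the beige differences of Rpl3 (0.30, adjusted p = 0.0616) and Rpsa (0.28, adjusted p = 0.101) no longer passed. That library was the highest of the 3 warm beige ones for Rpl3, Rpl13a, Rps3, Rps6 and Rpsa and for Rplp1 and Rplp2, but not for Rpl5.

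Among the 3 largest rises in brown adipocytes were those of Rps4x and Rps3a1, which also rose in beige. Rps3a1, a small subunit protein at the mRNA exit side, read 5.65, 5.38, 4.96 and 4.76 in cold beige and 7.34, 7.05 and 6.53 in warm beige. In brown it read 5.46, 5.31, 5.17, 5.24 and 5.34 cold and 6.69, 6.43, 6.77, 6.51 and 6.56 warm. Its rises were 1.79 ± 0.17 in beige (adjusted p = 4.49e-09) and 1.29 ± 0.14 in brown (adjusted p = 4.5e-08), and no warm value reached down to a cold one. Rps4x, an X-linked small subunit gene, had the largest rise in brown, 1.35 ± 0.13 (adjusted p = 5.87e-09). It went there from 5.20, 5.08, 4.94, 4.66 and 5.15 to 6.24, 6.43, 6.41, 6.34 and 6.37, and rose by 1.05 ± 0.16 in beige (adjusted p = 4.21e-06). Small nucleolar RNA genes lie within 29 of the 73 members, with 1 in Rps3a1.

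**Figure D4:**
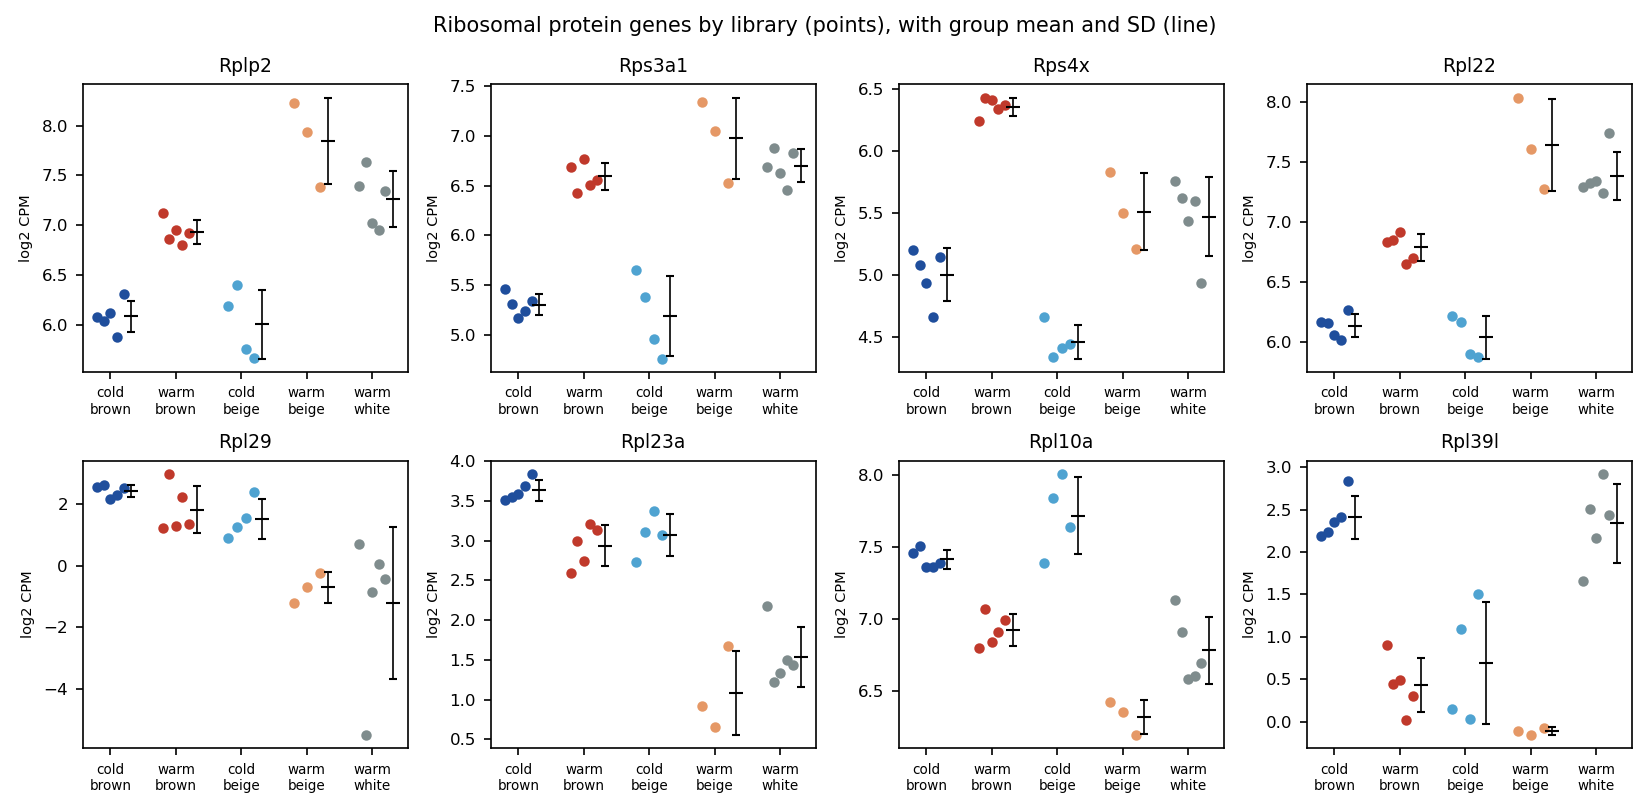
Each panel is a gene and each point a library, with log2 CPM on the vertical axis (each panel has its own range) and the group mean and SD as a line. The upper 4 genes are higher in warm than in cold libraries of both depots, Rpl23a and Rpl10a are lower, Rpl29 has a white library at -5.51, and Rpl39l is high in cold brown and warm white.

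Members of the large subunit were among those that fell most in beige adipocytes. Rpl23a, which sits at the exit of the peptide tunnel, read 2.73, 3.11, 3.37 and 3.07 in cold beige and 0.92, 0.65 and 1.67 in warm beige (-1.99 ± 0.24, adjusted p = 1.18e-07). Its gene (chromosome 11, 78180935 to 78183584) overlaps Tlcd1, which changed by -1.90 in beige and -1.49 in brown, and reads of the overlapping genes were not told apart here. Rpl27 read 1.89, 2.39, 2.38 and 2.35 against 1.51, 0.02 and 1.38 (-1.28 ± 0.29, adjusted p = 0.000472), with no change called in brown (0.12, adjusted p = 0.679). Rpl29, a large subunit protein, had the lowest values of these, 0.90, 1.26, 1.55 and 2.40 in cold beige and -1.20, -0.68 and -0.22 in warm beige. Its fall of 2.23 has an SE of 0.89 (adjusted p = 0.0293) and does not pass without cold beige library 4 (adjusted p = 0.0763), warm beige library 1 (adjusted p = 0.0905) or warm beige library 2 (adjusted p = 0.0605), while without white library 2 its adjusted p was 8.54e-05. Warm white library 2 held Rpl29 at -5.51, the only value of a member under -5 in any library, which is near the lowest values of the table.

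Some ribosomal protein genes have a diverged copy, and 5 of these copies, Rps4l among them, were measured with 4 of their parents. Whether a copy's product takes the parent's place in the ribosome was not tested. Rpl39l, known from male germ cells, read 2.19, 2.24, 2.36, 2.41 and 2.84 in cold brown and 0.90, 0.44, 0.49, 0.02 and 0.30 in warm brown, without overlap. It fell there by 1.98 ± 0.27 log2 units (adjusted p = 1.12e-06), while its X-linked parent Rpl39 rose by 0.93 ± 0.19 (adjusted p = 0.000168). In beige the copy read 0.15, 1.09, 0.03 and 1.50 cold and -0.11, -0.16 and -0.07 warm, and the change of -0.81 ± 0.33 (adjusted p = 0.0331) does not pass without cold beige library 2 (adjusted p = 0.0942) or 4 (adjusted p = 0.141), without any 1 warm beige library (adjusted p = 0.0569 to 0.0722), or with 1 CPM added before the logarithm (adjusted p = 0.0638). White libraries read 1.66 to 2.92, which overlaps cold brown. Rps4l, an intronless copy that RefSeq lists as a transcribed pseudogene overlapping Tmtc1, fell by 1.25 ± 0.14 in brown and 0.56 ± 0.16 in beige, while its parent Rps4x rose. With totals taken without the 20 most abundant rows, the beige fall of Rps4l was not called (adjusted p = 0.0721). Rpl7l1, the nucleolar copy of Rpl7, fell from 6.72, 6.60, 6.63 and 6.57 to 5.64, 5.28 and 5.53 in beige (-1.15 ± 0.09, adjusted p = 1.01e-10) and by 0.82 ± 0.07 in brown. Rpl7 itself rose by 0.77 in beige and 0.63 in brown. Rps27l, a p53 target, read 5.89, 6.20, 6.00 and 5.53 in cold beige and 4.81, 4.45 and 5.08 in warm beige (-1.12 ± 0.14, adjusted p = 3.36e-07), and its brown libraries did not differ beyond their spread (-0.05, adjusted p = 0.729). Its parent Rps27 was not analysed here. Rpl22l1 differed between depots rather than temperatures, at 2.11 to 2.61 in all brown libraries and 2.90 to 4.06 in all inguinal ones, with warming differences of -0.14 and 0.00 that were not called. Its parent Rpl22 read 6.22, 6.17, 5.90 and 5.87 in cold beige and 8.04, 7.61 and 7.28 in warm beige (1.60 ± 0.14, adjusted p = 5.63e-10), and rose by 0.65 in brown. In 3 of the 4 pairs with both genes measured, the copy fell and the parent rose in brown. There 65.8% of the members rose and 11% fell, against 41.2% and 30.1% of all rows. In beige the pattern held only for Rps4l and Rpl7l1, as the change of Rpl39 (0.49) was not called. Reads shared by near-identical copies could be split between them, so these levels are uncertain: 56 of the 73 members also have named pseudogenes in RefSeq. Rpl10, Rpl36a and Rpl3 were measured without their copies.

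The series title sets beige against brown adipocytes in how far warming changes them, so the beige change minus the brown change was tested gene by gene. It was positive for 10 members and negative for 18, against 14.8% and 32.4% of all rows, and the median was -0.07 against -0.17. Rps7, a small subunit protein that binds Mdm2, had the largest difference among the called members: it fell from 3.27, 3.46, 3.84 and 3.44 to 2.83, 3.09 and 2.83 in beige, and rose from 4.44, 4.30, 4.15, 4.16 and 4.29 to 5.01, 5.25, 5.12, 5.06 and 5.17 in brown. The difference was -1.44 ± 0.18 (adjusted p = 7.54e-07), and its warm and cold values did not overlap in either depot. Rpl29 was lower still (-1.61 ± 1.16), was not called (adjusted p = 0.266), and was called without white library 2 (adjusted p = 0.0212), which enters this test only through the shared spread. Rpl27 (-1.40 ± 0.38, adjusted p = 0.00424) and Rpl24 (-0.92) differed in the same direction. Rpl39l (1.17 ± 0.43, adjusted p = 0.0288), Rpl15 (1.05 ± 0.30, adjusted p = 0.00693), Rplp2 (1.00 ± 0.24, adjusted p = 0.00146) and Rpl22 (0.95 ± 0.18, adjusted p = 0.000141) differed in the other. Rpl15 read 4.85, 4.05, 4.10 and 3.82 in cold and 5.37, 4.80 and 4.26 in warm beige, which overlap, and 4.42, 4.22, 4.01, 4.12 and 4.07 in cold against 3.78, 3.55, 4.31, 3.58 and 3.39 in warm brown. The split of calls depended on scaling: 35.7% of the called members were positive as deposited, 58.1% (18 up, 13 down) with median-of-ratios scaling and 55.3% (21 up, 17 down) with quantile normalization. Batch 1, with 1 warm beige library, gave 0 positive and 1 negative, and batch 2 gave 13 and 20. Without warm beige library 3, 16 were positive. Rpl24 was named here after its values were seen.

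Before any rewarming, cold beige adipocytes carried less ribosomal protein mRNA than cold brown ones. Of the 73 members 5 were higher and 30 lower in cold beige, against 34.7% and 27.2% of all rows, with a median of -0.22 against 0.05. Rpl39l (-1.72 ± 0.29, adjusted p = 2.76e-05), Rplp0 (-1.21 ± 0.13, adjusted p = 7.93e-08) and Rpl7a (-1.12 ± 0.17, adjusted p = 7.23e-06) were lowest. The 5 higher ones were Rps24 (0.95 ± 0.12, adjusted p = 4.47e-07), Rpl22l1 (0.85), Rpl38 (0.47), Rps21 (0.46) and Rpl10a (0.30). Rps24 read 3.31 to 3.95 in cold brown and 4.46 to 4.96 in cold beige, without overlap. The calls of Rpl38 and Rpl10a end without cold beige library 2 (adjusted p = 0.107 and 0.0685), and the higher count falls to 3 without that library. Rpl38 is also not called without cold brown library 4 (adjusted p = 0.0571) and Rpl10a not without cold beige library 3 (adjusted p = 0.116). Rps21 and Rpl10a were named in this comparison after their values were seen. Batch 1 gave 1 higher and 18 lower, batch 2 gave 5 and 22. With median-of-ratios scaling 3 were higher and 38 lower, and of all called rows 45.8% were higher, against 56% as deposited. Cold brown libraries 1 and 5 held 211 to 220 CPM of endothelial markers against 64.4 to 70.1 in the other 3, and without both the counts were 5 and 22.

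Most called members were also lower in beige after rewarming. Compared with warm brown, 15 members were higher and 34 lower in warm beige, against 35.3% and 40.1% of all rows, with a median of -0.32 against -0.05. Rpl29 (-2.53 ± 0.85, adjusted p = 0.0105) and Rps7 (-2.21 ± 0.13, adjusted p = 1.2e-12) were among the lowest. Rpl15 (1.09 ± 0.22, adjusted p = 0.000153), Rps21 (1.03 ± 0.14, adjusted p = 9.68e-07) and Rplp2 (0.92 ± 0.18, adjusted p = 6.37e-05) were highest. Rps7 read 2.83 to 3.09 in warm beige and 5.01 to 5.25 in warm brown. Within batch 1, with 1 warm beige library, 2 were higher and 31 lower, and within batch 2, 16 and 31.

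White adipocytes, from mice held at 30 °C from birth per the treatment protocol, gave a further point of reference, and warm beige had the fewest members called against them of the 4 other groups. Between warm beige and warm white, 11 members were higher and 10 lower, against 17.0% and 22.4% of all rows. The median difference was 0.08 (all rows -0.04), and 52 members were not called. Rpl36, a large subunit protein, was highest in warm beige (1.31 ± 0.25, adjusted p = 0.00025), at 1.51, 2.12 and 1.96 against 0.73, 0.82, 0.78, 0.63 and -0.17 in white. Rps2 and Rplp2 followed (both 0.58), and both calls end without warm beige library 1 (adjusted p = 0.0996 and 0.104). Rpl39l (-2.45 ± 0.32, adjusted p = 2.62e-06), Rpl39 (-0.74) and Rpl27 (-0.72) were lowest. These counts are unsteady: without warm beige library 1 they were 3 and 8, without library 3 they were 20 and 11, and Rpl39 (adjusted p = 0.143) and Rpl27 (adjusted p = 0.473) are not called without library 2. Rpl27, at an adjusted p of 0.0447, also missed the threshold without any 1 of white libraries 1, 3, 4 and 5 (adjusted p = 0.0638 to 0.103). Lower calls were 3 without warm beige library 2, 6 without white library 1 and 5 without white library 5. Batch 1 gave 0 higher and 2 lower and batch 2 gave 21 and 8, and totals taken without the 20 most abundant rows gave 19 and 4, where the share of higher calls among all rows went from 43.1% to 61%.

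The cold libraries and warm brown had more members called against white. White libraries held 4080 to 5270 CPM of fibroblast, 59.2 to 91.6 of endothelial and 80.5 to 133 of macrophage markers and 2.06 to 2.41% of Rn45s, against the values of the other groups given above, and the part of these in the comparisons with white was not tested. In cold beige 17 members were higher than in white and 38 lower, against 38.0% and 37.2% of all rows (median -0.34, all rows 0.01). Rpl29 (2.73, adjusted p = 0.00332) and Rpl23a (1.54) were highest and Rpl39l (-1.65), Rps3a1 (-1.51) and Rpl22 (-1.35) lowest. In cold brown 29 were higher and 34 lower, against 40.4% and 45.2% (median -0.19, all rows -0.10). Rpl29 (3.65, adjusted p = 8.79e-05) and Rpl23a (2.10) again led the higher ones, and Rps21 (-1.40), Rps3a1 (-1.39) and Rps24 (-1.26) the lower ones. The comparisons with white share the white libraries, so they are not independent of each other. In warm brown 43 were higher and 12 lower, against 40.9% and 38.1% (median 0.33, all rows 0.03), with Rpl29 (3.03, adjusted p = 0.00075), Rps7 (2.02) and Rpl7a (1.86) highest and Rpl39l (-1.91), Rpl22l1 (-1.11) and Rpl15 (-1.03) lowest. The values of Rpl29 rest in part on white library 2: without it they were 1.65 in cold beige (adjusted p = 0.000774), 2.57 in cold brown (adjusted p = 1.6e-06) and 1.95 in warm brown (adjusted p = 7.27e-05), the last below Rps7 at 1.98. Within batches the higher and lower counts were 9 and 34, then 19 and 25 for cold beige, 21 and 23, then 27 and 27 for cold brown, and 34 and 7, then 40 and 5 for warm brown.

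**Figure D5:**
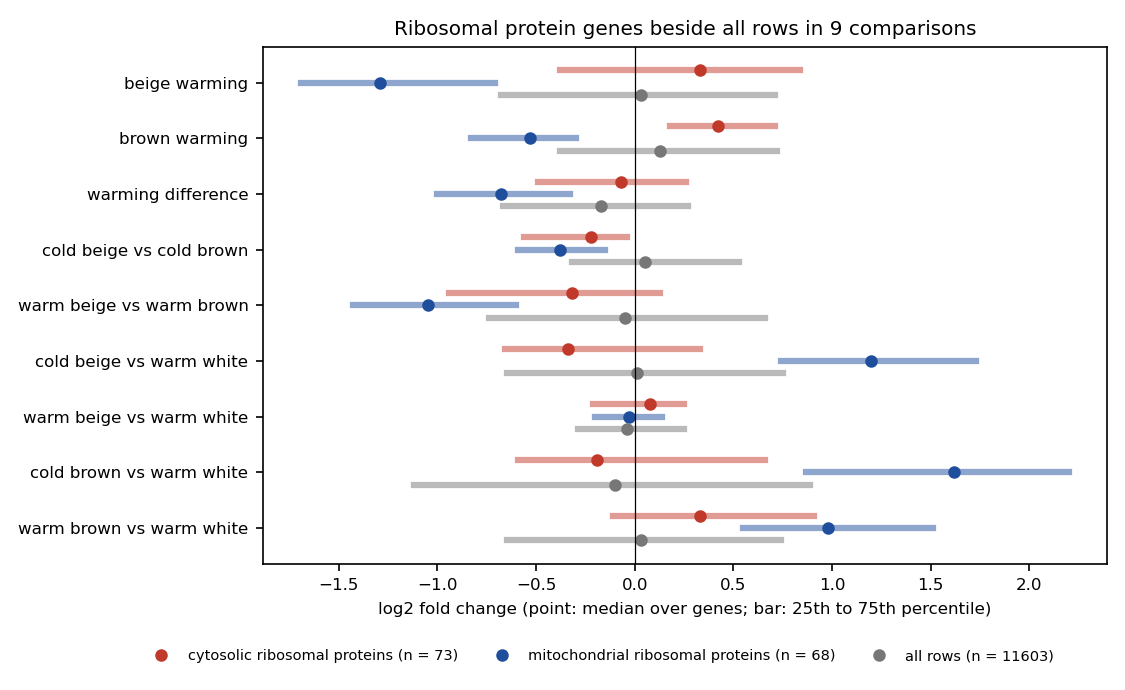
For each of the 9 comparisons the point is the median log2 fold change (the group named before vs minus the group after it, warm minus cold for warming, beige minus brown for the warming difference) and the bar spans the 25th to 75th percentile, for the 73 cytosolic genes, 68 mitochondrial ribosomal protein genes and all rows. The cytosolic medians are above 0 for both warmings (0.33 and 0.42), where the mitochondrial ones are below it (-1.29 and -0.53).

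Some proteins of the cytosolic ribosome have symbols that the rule misses. Fau, a ubiquitin-like protein fused to a small subunit protein, rose by 0.88 ± 0.13 in beige (adjusted p = 4.39e-06) and 0.38 in brown. Rack1, a signalling scaffold on the small subunit, rose by 0.72 ± 0.10 in brown (adjusted p = 2.18e-06), and its beige difference of 0.19 was not called (adjusted p = 0.171). The 68 genes of the mitochondrial ribosome, a separate machine that translates the mRNAs of mitochondrial DNA, went the other way. Of these 0 rose and 62 fell in beige (median -1.29), and 3 rose and 54 fell in brown (median -0.53). Among all rows 36.0% rose and 36.9% fell in beige, and 41.2% rose and 30.1% fell in brown.

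Genes that control or serve translation were read from lists of their own, whose counts stand against 36.0% of all rows up and 36.9% down in beige and 41.2% up and 30.1% down in brown. Of 25 other TOP mRNAs 14 rose and 5 fell in each depot, with Nap1l1, a histone chaperone, at 2.42 in beige and 1.34 in brown, and Eif4b at 1.45 and 1.02. The glycolytic enzyme Tpi1, whose place among TOP mRNAs is less sure, as is that of Vim and Cct2, changed by -2.12 in beige. Pabpc1, the poly(A)-binding protein, had the largest brown rise of that list (1.64 ± 0.14, adjusted p = 9.08e-10). Of 37 initiation factors, by contrast, 5 rose and 23 fell in beige and 8 rose and 19 fell in brown, led in beige by Eif2b1 (-1.90), a subunit of the exchange factor for eIF2, and in brown by Eif2b5 (-1.03). Elongation and termination factors (12 measured) split, with 6 up and 5 down in beige and 6 up and 3 down in brown. Eef2k, the kinase that restrains elongation, was highest in beige at 2.46 ± 0.17 (adjusted p = 9.42e-12), and Eef1g rose by 1.40 and 0.97. Of 28 genes of mTORC1 and its control, 6 rose and 17 fell in beige and 4 rose and 15 fell in brown. Mtor fell by 1.93 ± 0.10 in beige (adjusted p = 8.88e-14), Ddit4, an inhibitor upstream of mTORC1, rose by 2.18 ± 0.42 there (adjusted p = 7.95e-05), and the S6 kinase gene Rps6kb2 and the mTORC1 inhibitor Sesn2 each changed by -1.24 in brown.

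Among 15 chaperones and surveillance genes of ribosomal proteins, 4 rose and 5 fell in beige, no larger a share than among all rows (36.0% and 36.9%), and 3 rose and 8 fell in brown (all rows 41.2% and 30.1%). Cdkn1a, the p53 target p21, fell by 2.95 ± 0.25 in beige (adjusted p = 4.52e-10). In brown Mdm4 (1.01) and Trp53 (0.90) rose. The list of polymerase II regulators of these genes held 10 rows of 9 genes, of which 5 rose and 2 fell in beige and 6 rose and 3 fell in brown. Myc rose by 3.58 ± 0.28 in brown (adjusted p = 1.29e-10) and 1.53 ± 0.34 in beige (adjusted p = 0.000315), and the difference between these changes was -2.05 (adjusted p = 0.000494). Gabpa, whose product binds ETS sites, fell by 1.40 in beige on its more changed row. Its other row rose by 0.49 in brown (adjusted p = 1.51e-05). The beige change minus the brown change was -1.12 on the former and -0.90 on the latter. Sp1 rose by 0.72 in both depots.

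The start sequences were set beside the calls. Of the 11 genes printed above, 9 rose and 1 (Rpl35) fell in beige, and 8 rose and 1 (Rpl15) fell in brown. Of all 73 members 50.7% rose and 24.7% fell in beige, and 65.8% rose and 11% fell in brown. For all rows the shares were 36.0% and 36.9% in beige and 41.2% and 30.1% in brown. With the looser definition, 13 of the 24 genes with a tract rose and 7 fell in beige (median 0.62), and 17 of the 30 without rose and 5 fell (median 0.38). In brown these were 14 and 4 (median 0.41) against 21 and 1 (median 0.42). The motif CCGGAAG, the core of ETS family sites, was in 23 of 54 members' promoters (42.6%, 250 bases before to 50 after the start, both strands) against 9.93% of all genes in the table and 20.3% of those measured. Members with it rose in 11 and fell in 6 cases in beige, those without in 19 and 6. AAGATGGCG, a core of YY1 sites, was in 3 promoters (5.56%, all genes 1.64%, measured genes 3.86%). CACGTG, the E-box, was in 6 (11.1%), above all genes (8.09%) but below measured genes (12.0%). TATAAA was in 7 (13.0%), below all genes (15.7%) but above measured genes (8.53%). These motifs were chosen with the results known, and none of the splits was tested.

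Position and neighbours were described in the same way. The members lie on 18 chromosomes, 12 of them on chromosome 7 and 4 on X. Of the 9 members that overlap another protein-coding gene (Rpl5, Rpl19, Rpl23a, Rpl24, Rpl32, Rpl35, Rpl35a, Rps4l and Rps25), 2 rose and 5 fell in beige, and of the other 64, 35 rose and 13 fell. In brown these counts were 4 and 3, and 44 and 5. Of all rows 36.0% rose and 36.9% fell in beige, and 41.2% rose and 30.1% fell in brown. The 17 members without a named pseudogene held 10 that rose and 5 that fell in beige (median 0.44), and the 56 with one held 27 and 13 (median 0.27). How the submitters' counting treated reads that match a gene and its pseudogenes is not given in the sources used here.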

How the data were processed

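Ribosome-bound mRNA was sequenced in 22 libraries of 5 groups. The deposited table holds 11603 rows of log2 CPM values with UCSC identifiers and symbols. The values themselves carry a batch adjustment, a step seen only in the data: for the 2 batches inferred from the lowest values of each library, the largest fitted batch difference of any row was 0.005 log2 units. The tools HISAT2, Picard, featureCounts and edgeR and the genome build mm10 are listed, with no order or role, per the submitters' processing notes. The annotation, strand setting and treatment of reads with several matches are not given in the sources used here. Read depth is unknown, so no counting intervals are given, and counts could not be recovered from rounded, adjusted logarithms.

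All rows were fitted with limma 3.58.1 (trend, R 4.3.3) with a mean for each group and 17 residual degrees of freedom. The fit has no batch term and does not count the earlier batch adjustment, so its p-values may be somewhat too small. With a batch term the warming difference had 10 members higher and 15 lower. Tests were two-sided, p-values were Benjamini-Hochberg adjusted over all rows, and calls were made at 0.05. SE denotes the standard error of a log2 difference. The procedure was tested on simulated data. The labels do not name these batches. Libraries with the same number in their titles were checked for shared deviations (correlations -0.25 to 0.32). Those with the same library number in their descriptions were checked too (-0.26 to 0.35). No comparison had every pair above 0.1, so the numbers were not taken to pair them. Beige and brown libraries of the same library number did correlate positively, at 0.07 to 0.35 cold and 0.07 to 0.20 warm. Whether they share mice is not given, and the tests treat them as independent. With a block by library number, cold beige against cold brown gave 5 higher and 28 lower. Warm beige against warm brown gave 15 and 33.

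The named genes are members with set roles and paralogs with their parents (21 of 27 measured; Rpl3l, Rpl10l, Rpl11, Rpl36al, Rps27 and Rps27a were not analysed here), the 3 highest and 3 lowest members of each comparison, the ribosomal proteins the rule misses, and the 3 most changed called genes of each pathway list. Members and lists were chosen with earlier results of these data known. Alternatives covered pseudocounts, a filter, scalings, variance settings, replicate blocks, batches and leaving out each library, and 1 was added after the data were seen (leaving out the 2 cold brown libraries high in endothelial markers). The other genes named for overlap or opposite calls follow from those counts. Promoter and start sequences are RefSeq's on GRCm38.p6. Results for some genes that this selection names are not reported here, and they remain in the counts.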

Additional observations from a re-analysis of the deposited data

Results flagged for a closer look

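The change on rewarming differed between beige and brown adipocytes for 28 of the 73 ribosomal protein genes, by the test of the beige change minus the brown change (limma, adjusted over all rows). Of the members 13.7% were positive and 24.7% negative, against 14.8% and 32.4% of all rows. Such differences were thus no more frequent among the members than among all rows. In log2 units the most negative differences included those of Rps7 (-1.44), Rpl27 (-1.40), Rpl35 (-1.33), Rpl23a (-1.29), Rps25 (-1.18), Rps27l (-1.08) and Rpl24 (-0.92). Less negative ones included those of Rpl6 (-0.91), Rpl10a (-0.91), Rps15 (-0.78), Rpl7a (-0.62), Rps20 (-0.49), Rplp0 (-0.49), Rpl4 (-0.33) and Rpl7l1 (-0.33). The positive differences were those of Rpl39l (1.17), Rpl15 (1.05), Rplp2 (1.00), Rpl22 (0.95), Rpl27a (0.73), Rps4l (0.69), Rps12 (0.67), Rps9 (0.57), Rps21 (0.57) and Rpl14 (0.49). Calls of these genes, those of Rplp0, Rpl39l and Rpl7l1 among them, were lost under some of the 40 alternative settings. Most were lost within batch 1, which has 1 warm beige library. The split also depended on scaling: 35.7% of the called members were positive as deposited, 58.1% with median-of-ratios scaling and 55.3% with quantile normalization.

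In 96 groups of 4 or 5 libraries, taken for the members with set roles and 3 library measures, 3 values lay far from the others of their group by Dixon's criterion, which chance meets in about 1 of 20 groups. Rpl22 read 7.74 log2 CPM in warm white library 5, where the other 4 read 7.24 to 7.34. Rplp0 read 6.61 in cold brown library 3, where the others read 6.85 to 6.94. Rpsa read 7.01 in warm brown library 3, where the others read 7.15 to 7.19.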

How the results depend on the processing

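Of the 720 alternative values of the counts of members called, 685 lay within 1.5 times the reported count, and no member was called in the opposite direction under any of the 40 settings. Of 9000 alternative values for named members in single comparisons, 8569 kept their side of the threshold, and their direction where called. Among the rest 295 lost the call, 133 gained it and 3 reversed direction with a call before or after. Changes of direction in values called in neither fit were not counted. The cause of the changes below was not tested beyond the smaller number of libraries where some are left out.

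Within batch 1 the counts were 24 higher and 5 lower for beige warming, 28 and 4 for brown warming, 0 and 1 for the warming difference, 1 and 18 for cold beige against cold brown, 9 higher for cold beige against white, 2 higher for warm beige against warm brown, 0 and 2 for warm beige against white, and 7 lower for warm brown against white. Within batch 2 they were 25 lower for cold beige against white, 21 higher for warm beige against white and 5 lower for warm brown against white. The warming difference had 18 higher with median-of-ratios scaling, 21 with quantile normalization, 18 with totals without the 20 most abundant rows and 16 with library weights. Cold beige against cold brown had 3 higher with median-of-ratios scaling. Warm beige against white had 19 higher and 4 lower with totals without the 20 most abundant rows, 17 and 4 with totals without the members and Rn45s, 7 and 4 with only those groups fitted, and 5 lower with a common library total. There the share of higher calls was 52.4% as reported and 82.6%, 81.0%, 63.6% and 70.6% under these settings.

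Leaving out each library in turn gave 30 to 38 higher and 15 to 20 lower for beige warming, 43 to 50 and 6 to 8 for brown warming, 7 to 16 and 13 to 24 for the warming difference, 3 to 5 and 25 to 32 for cold beige against cold brown, 10 to 16 and 31 to 38 for warm beige against warm brown, 15 to 19 and 33 to 39 for cold beige against white, 3 to 20 and 3 to 11 for warm beige against white, 27 to 29 and 29 to 36 for cold brown against white, and 40 to 44 and 10 to 12 for warm brown against white. The warming difference had 7 higher without warm beige library 1 and 16 without library 3. Reversed values were Rpl36a between cold beige and cold brown (-0.53 with quantile normalization), Rplp1 between warm beige and warm brown (-0.09 within batch 1) and Rplp2 between warm beige and white (-0.07 within batch 1).

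With a replicate block by title number, 37 members rose and 16 fell in beige, 48 rose and 8 fell in brown, and the warming difference had 10 higher and 16 lower. With a replicate block by library number it had 12 and 17. Of the calls of Rpl29 in beige, the block by title number left an adjusted p of 0.0617. Without cold brown libraries 1 and 5, 37 rose in beige, 48 rose in brown, and the warming difference had 8 higher. Unknown depth limits what can be said of members near the lowest values, such as Rpl29.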
